A study of Arabidopsis thaliana with 6 samples.

Results

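Class III peroxidases are haem enzymes that plants secrete into the cell wall and the vacuole, and the genes described here are those of this family in Arabidopsis. The family was taken as a given list of 60 loci, and a locus counts as measured where a probe set is annotated with it and no other gene. This held for 49 of the 60 loci, each with 1 probe set, out of 13355 genes with such a probe set in all. Of the other 11 loci, 5 share 3 probe sets with another gene and 6 are not listed by the annotation used here, and none of these 11 was analysed.

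Class III peroxidases use hydrogen peroxide to oxidise phenolic compounds, and so can stiffen the wall by coupling lignin precursors to each other or by linking wall proteins such as extensins. They can also form reactive oxygen species that loosen the wall. In Arabidopsis, members of the family are known from lignified vessels and fibres, from root hairs, from the seed coat and from the tapetum, the anther layer that feeds the young pollen.

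The samples were whole inflorescences bearing young buds from 3 *tink/ibr5-6* plants and from 3 wild-type plants of Landsberg *erecta* (L*er*), 1 plant per Affymetrix ATH1 array. The mutant line came from chemical (EMS) mutagenesis of *klu-2* plants, was crossed back to L*er* 3 times and carries tyrosine in place of the active-site cysteine of the MAPK phosphatase IBR5. It is a single line, so other EMS changes that it may carry cannot be told apart from *tink/ibr5-6*. The study describes the sampled buds as closed flowers. The sources used here give neither the age of the plants nor numbered bud stages, and do not say whether the plants grew side by side, so that the p-values given here rest on the spread among these 6 plants alone. *IBR5* itself was not analysed here, since no probe set is annotated with it alone here.

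All values are log2 signals as normalized with gcrma by the authors. The medians of the 6 arrays lay between 6.18 and 6.20. Across probe sets, which are not independent replicates, r was 0.996 to 0.998 for arrays of the same genotype and 0.972 to 0.985 for arrays of different genotypes. The lowest deposited value was 2.10, and values under 3 are treated here as near that lowest signal. Values of different probe sets are not on a shared scale of abundance, so that genes are compared between plants and not with each other. A gene was called changed at an adjusted p under 0.05 (limma, Benjamini-Hochberg over 22746 probe sets) together with a change of more than 1 on the log2 scale in either direction, which are the thresholds of the study. With 3 arrays per genotype an exact permutation test reaches 0.1 at the smallest, so the number of arrays limits the precision. Defining markers were checked for the labelled tissue, and all 7 measured tapetum genes were above a log2 value of 3 on all 6 arrays. Both measured root hair genes, *EXPA7* and *EXPA18*, lay at or next to the lowest value on every array. The only measured gene of floral identity, *UFO*, was at the lowest value on every array too, and the other floral identity genes were not analysed here.

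*PER65* and *PER41* were lower in *tink/ibr5-6* inflorescences, and no measured peroxidase was called higher. The other 47 measured members did not pass the test. Calls among the measured members thus came to 4.08%, all of them lower, against 4.25% called in either direction over all tested probe sets, of which 2.71% were lower and 1.53% higher. These shares are given as a description, since 65.3% of the members, against 31.5% of all tested probe sets, were under a log2 value of 3 on every array and so could not reach a call. Among the 49 members, 3 were lower and 1 was higher at an unadjusted p under 0.05 (limma). The median log2 fold change of the 49 members was 0.00, as was that of all tested probe sets. For the members it was set by genes with the same value on every array, so it does not show that the family kept its level.

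*PER65* (AT5G47000) encodes a haem peroxidase of the secreted class. Its log2 values were 4.03, 2.77 and 2.35 in *tink/ibr5-6* replicates 1, 2 and 3, and 8.45, 9.14 and 8.67 in L*er* replicates 1, 2 and 3. The lowest L*er* array was 4.42 above the highest *tink/ibr5-6* array on the log2 scale, and 2 of the mutant arrays were near the lowest signal. The means were 3.05 ± 0.87 in the mutant against 8.75 ± 0.35 in the wild type (SD, n = 3 per genotype), or -5.70 as a log2 fold change (SE 0.52, 95% interval -7.09 to -4.31, limma adjusted p = 0.0079). This corresponds to a fitted decrease of 52.0-fold, which is not exact, since it rests on arrays near the lowest signal. *PER65* was called whichever of the 6 arrays was left out, with log2 fold changes of -6.19 to -5.35.

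*PER41* (AT4G17690) encodes another such peroxidase, and the gene descriptions used by the study give *PER41* and *PER65* as similar to each other. Its log2 values were 2.50, 2.30 and 2.35 in *tink/ibr5-6* replicates 1, 2 and 3, and 5.54, 7.37 and 6.71 in L*er* replicates 1, 2 and 3. All mutant arrays were thus near the lowest signal, while the L*er* plants spread over almost 2 units. The means were 2.39 ± 0.11 in the mutant against 6.54 ± 0.93 in the wild type (SD, n = 3 per genotype), or a fitted -4.16 as log2 fold change (SE 0.52, 95% interval -5.54 to -2.77, limma adjusted p = 0.014). Counted from a log2 value of 3, the decrease was at least 11.6-fold, a bound that uses the L*er* mean and leaves out its spread. The call was lost in the fits without *tink/ibr5-6* replicate 1 (adjusted p = 0.056), *tink/ibr5-6* replicate 2 (adjusted p = 0.061), *tink/ibr5-6* replicate 3 (adjusted p = 0.053) or L*er* replicate 3 (adjusted p = 0.058), all from limma with log2 fold changes of -4.22 to -4.07.

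**Figure D1:**
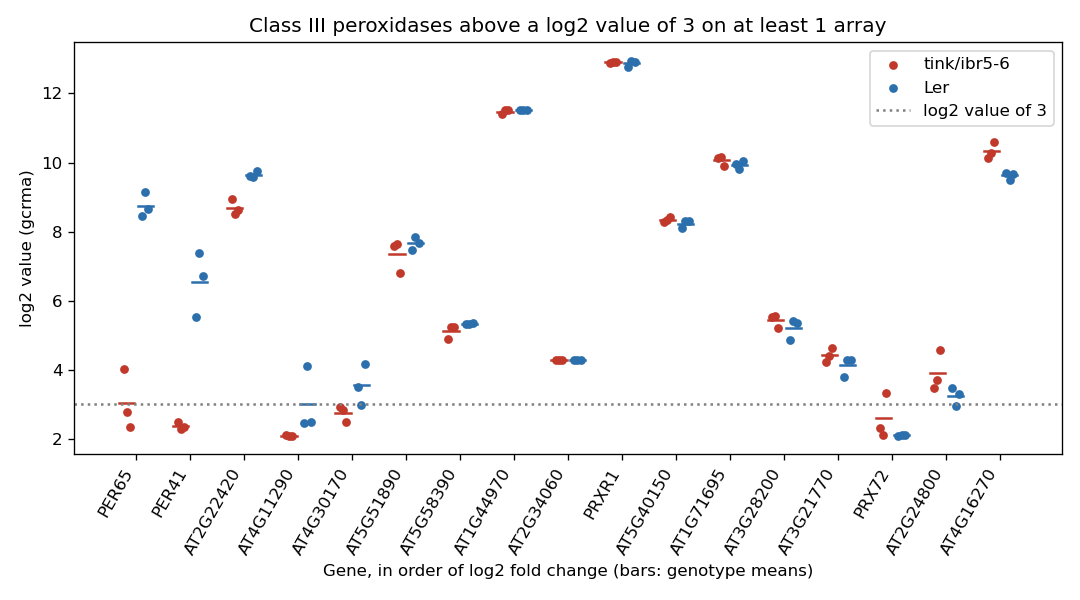
Log2 values (gcrma, vertical axis) of the 17 class III peroxidases above a log2 value of 3 (dotted line) on at least 1 array, with 1 point per array (red, 3 *tink/ibr5-6*; blue, 3 L*er*) and a bar at each genotype mean. The 3 *tink/ibr5-6* points of *PER65* lie between 2.35 and 4.03 and those of L*er* between 8.45 and 9.14.

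RNA from whole inflorescences holds many cell types, and fewer cells of a type and less RNA per cell cannot be told apart in such samples. Transcripts of a list of pollen genes, chosen with earlier results of these data known, moved in the same direction as both peroxidases. Of 43 listed genes of mature pollen and the pollen tube, 13 were measured, and 8 were called lower, none higher and 5 not called (11 of the 13 passed an unadjusted p under 0.05, limma). The median log2 fold change of the 13 was -2.53, against 0.00 over all tested probe sets. Averaged over the 13, the arrays lay between 3.61 and 4.25 on the log2 scale in *tink/ibr5-6* and between 6.16 and 6.87 in L*er*. AT2G21480 was between 2.10 and 2.12 on every array, and none of the other 12 measured genes stayed under a log2 value of 3 on all of them. *PLIM2a*, an actin-bundling protein gene of pollen, changed by a fitted -5.41 on the log2 scale (limma adjusted p = 0.011). This value is not exact, since *tink/ibr5-6* replicates 2 and 3 were near the lowest signal (2.23 and 2.33). *AtVEX1*, a sugar transporter gene of pollen also known as *SWEET5*, changed by -4.71 (limma adjusted p = 0.0073), and *ANX2*, a receptor-like kinase gene that keeps the pollen tube intact, by a fitted -3.42 (limma adjusted p = 0.014).

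L*er* replicate 2 was the highest L*er* array for *PER65*, for *PER41* and for 10 of the 13 pollen genes. *tink/ibr5-6* replicate 1 was the highest mutant array for both peroxidases. Without counting ties, it was so too for 7 of the 12 pollen genes above a log2 value of 3 on some array. The shares over all tested probe sets were not counted, so these counts are a description only. All mutant arrays of *PER41* and of *ANX2*, among others, were near the lowest signal, where their order says little. The part of pollen content in the decrease of *PER65* and *PER41* was not tested. The pollen count was 4 without *tink/ibr5-6* replicate 2. None of the 7 measured of 28 tapetum genes was called lower or higher by limma (3 at an unadjusted p under 0.05), and their median log2 fold change was 0.26. *AMS*, which encodes a transcription factor that acts in this layer, had 8.66 ± 0.26 in the mutant against 7.77 ± 0.06 in the wild type (SD, n = 3 per genotype, log2 scale), or 0.89 as a log2 fold change (limma adjusted p = 0.025). In the fit without *tink/ibr5-6* replicate 1, the count of tapetum genes called higher was 1.

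**Figure D2:**
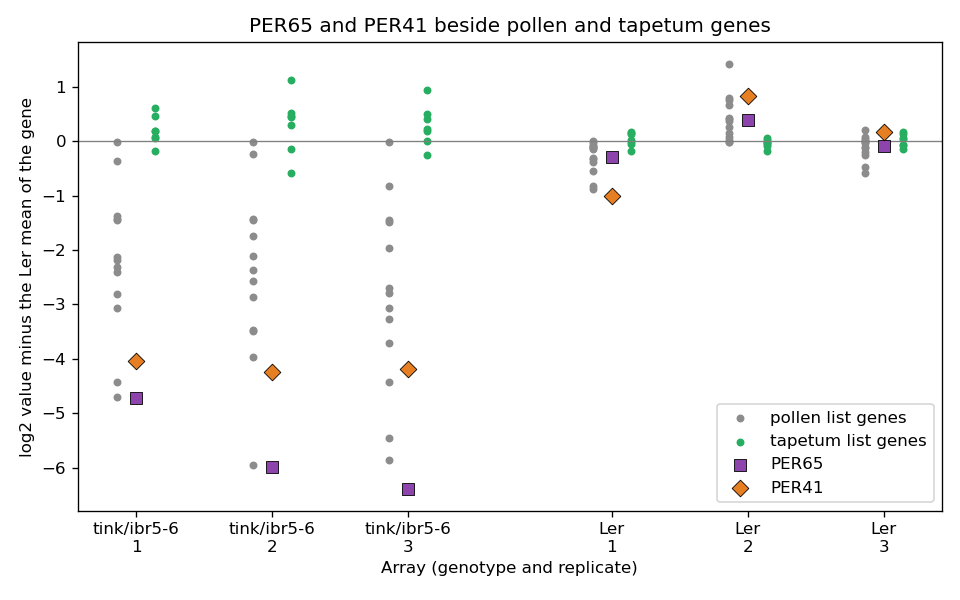
Log2 value of each gene minus its own L*er* mean (vertical axis) on each of the 6 arrays (horizontal axis), for *PER65* (squares), *PER41* (diamonds), the 13 pollen genes (grey) and the 7 tapetum genes (green). Both peroxidases lie below 0 by more than 4 on the 3 *tink/ibr5-6* arrays, as *PLIM2a* alone does among the pollen genes, while every tapetum gene lies above -1 on all arrays.

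AT2G22420 came nearest to a call without passing it. Its log2 values were 8.93, 8.51 and 8.62 in *tink/ibr5-6* and 9.62, 9.58 and 9.75 in L*er* (replicates 1, 2 and 3 each). Every mutant array was below every L*er* array, with a gap of 0.65 on the log2 scale. The means were 8.69 ± 0.22 and 9.65 ± 0.09 (SD, n = 3 each), or -0.96 as a log2 fold change (SE 0.13, 95% interval -1.31 to -0.61, limma adjusted p = 0.017), so that the difference passed the adjusted p and fell short of the limit on the fold change. Without *tink/ibr5-6* replicate 1, the mutant array nearest to L*er*, it was called at -1.08 on the log2 scale (limma adjusted p = 0.021). Leaving out any of the other 5 arrays gave log2 fold changes of -0.996 to -0.872, and the adjusted p of up to 0.063 (limma) then no longer passed.

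AT4G16270 was the member with the highest log2 fold change. Its log2 values were 10.12, 10.28 and 10.60 in *tink/ibr5-6* and 9.70, 9.50 and 9.68 in L*er* (replicates 1, 2 and 3 each), and the genotypes did not overlap. The means were 10.33 ± 0.24 and 9.63 ± 0.11 (SD, n = 3 each), or 0.71 as a log2 fold change (SE 0.15, 95% interval 0.31 to 1.10, limma adjusted p = 0.045), which also passed the adjusted p and not the limit on the fold change. Leaving out 1 array gave log2 fold changes of 0.57 to 0.81 with an adjusted p of 0.058 to 0.132 (limma), so that the adjusted p no longer passed in any of these 6 fits. The tapetum gene *AMS*, described above, and *SWEET8*, a sugar transporter gene of the tapetum that differed by 0.49 on the log2 scale (limma adjusted p = 0.015), passed the adjusted p in the same direction. Of the other 5 measured tapetum genes none passed, with AT1G75920 at -0.34 and *SPL* at -0.03 on the log2 scale. Among the peroxidases, AT1G44970, described below, differed by only -0.04 on the log2 scale (95% interval -0.13 to 0.06). The part of the tapetum in the values of AT4G16270 and AT1G44970 was not tested.

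Without the limit on the fold change, 3 of the 49 members were lower and 1 was higher at an adjusted p under 0.05 (limma), where the background over all tested probe sets was 6.65% lower and 9.6% higher. The arrays of the genotypes did not overlap for 6 members with lower values in *tink/ibr5-6* (12.2% of the 49, against 14.4% of all tested probe sets) and for 2 members with higher values (4.08%, against 21.3%). These shares are a description only and do not show that raised members were scarce. On every array, 65.3% of the members, against 31.5% of all tested probe sets, were under a log2 value of 3. A gene with the same value on all 6 arrays cannot separate the genotypes.

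**Figure D3:**
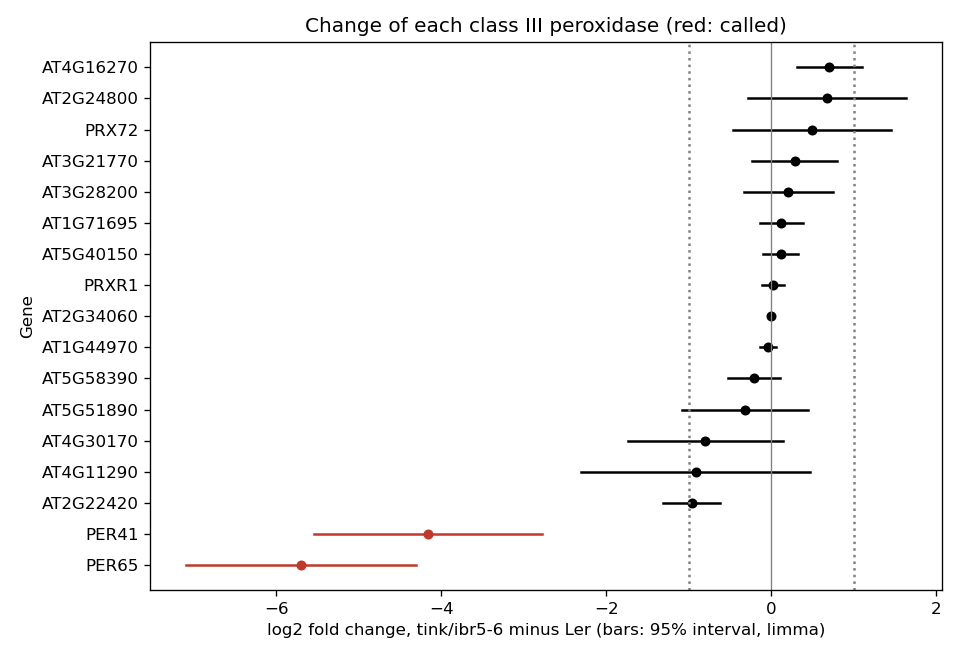
Log2 fold change, *tink/ibr5-6* minus L*er* (horizontal axis, points), with its 95% interval from limma (bars) for the 17 members above a log2 value of 3 on at least 1 array, with called genes in red and dotted lines at the limits of -1 and 1. The intervals of *PER65* and *PER41* lie wholly below -1, and those of AT2G22420 and AT4G16270 exclude 0 and include a limit.

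The other 9 of the 11 members above a log2 value of 3 on all 6 arrays were not called either. *PRXR1* (AT4G21960) had 12.88, 12.91 and 12.90 in *tink/ibr5-6* and 12.77, 12.93 and 12.91 in L*er* on the log2 scale. The difference was 0.02 with a 95% interval of -0.11 to 0.16, so that a change beyond the limit for a call lies outside this interval. The sign of the difference turned after a further quantile normalization (-0.059) and in the fit without L*er* replicate 1 (-0.028). AT1G71695 had 10.13, 10.16 and 9.90 in *tink/ibr5-6* and 9.96, 9.82 and 10.03 in L*er* (log2 values), a difference of 0.12 with an interval of -0.14 to 0.38. The arrays of the genotypes overlapped for both genes. AT5G40150 had log2 values of 8.28, 8.33 and 8.43 in *tink/ibr5-6* and 8.09, 8.30 and 8.31 in L*er*, which overlapped too, with a difference of 0.12 (interval -0.09 to 0.33).

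The values of AT1G44970 were 11.40 (log2) in *tink/ibr5-6* replicate 1, 11.52 in L*er* replicate 2 and 11.51, the same to all deposited decimals, on the other 4 arrays. The log2 difference was -0.04 with a 95% interval of -0.13 to 0.06. AT2G34060 likewise held 1 value, 4.28, on 3 arrays, and its 6 values differed by less than 0.01 on the log2 scale. AT3G21770 had equal values on 2 arrays. Such shared values occurred in 11.0% of all probe sets above a log2 value of 3 on every array, and for these genes the spread between arrays, and the standard errors that rest on it, may be understated. For AT2G34060 the standard error was 0.0023, and a further quantile normalization turned its log2 difference of -0.0017 to 0.16 (limma adjusted p = 0.012), below the size needed for a call.

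AT5G51890 had log2 values of 7.60, 7.66 and 6.79 in *tink/ibr5-6* and 7.48, 7.85 and 7.68 in L*er*. The mutant arrays spread more than those of L*er* because of replicate 3, and the log2 difference of -0.32 had a wide interval of -1.08 to 0.44, which still holds a decrease as large as the limit for a call. AT5G58390 had log2 values of 4.88, 5.25 and 5.25 in *tink/ibr5-6* against 5.32, 5.33 and 5.37 in L*er*, which did not overlap but differed by only -0.21 on the log2 scale (limma adjusted p = 0.34). Arrays of the genotypes overlapped for AT3G28200, with log2 values of 5.53, 5.56 and 5.20 in *tink/ibr5-6* and 4.87, 5.43 and 5.37 in L*er* and a difference of 0.21 (interval -0.33 to 0.75). They overlapped for AT3G21770 as well, with 4.24, 4.39 and 4.63 in *tink/ibr5-6* and 3.80, 4.30 and 4.30 in L*er* and a log2 difference of 0.29 (interval -0.23 to 0.80).

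Besides *PER65* and *PER41*, 4 members were above a log2 value of 3 on some arrays only. AT4G11290 was near the lowest signal on all *tink/ibr5-6* arrays (2.10 on each) and had log2 values of 2.45, 4.11 and 2.49 in L*er*, so that the fitted log2 fold change of -0.91 (limma adjusted p = 0.34) rests on L*er* replicate 2. Without that array it was -0.37 (limma adjusted p = 0.0095), which is under the limit for a call. AT4G30170 had 2.93, 2.84 and 2.51 in *tink/ibr5-6* and 3.50, 2.98 and 4.17 in L*er*, or a fitted -0.80 as log2 fold change (limma adjusted p = 0.23). The genotypes did not overlap for these 2 genes, although the gap for AT4G30170 was under 0.1. *PRX72*, a gene of lignin formation, had 2.33, 2.13 and 3.35 in *tink/ibr5-6* and 2.10, 2.10 and 2.11 in L*er* (log2 values). Its genotypes did not overlap, with a gap of only 0.02 near the lowest signal. The fitted difference of 0.50 (limma adjusted p = 0.47) was 0.13 without *tink/ibr5-6* replicate 3, the only array above a log2 value of 3. AT2G24800 had 3.47, 3.70 and 4.59 in *tink/ibr5-6* and 3.49, 2.95 and 3.29 in L*er* (log2 values), which overlapped, with a fitted difference of 0.68 (limma adjusted p = 0.31).

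The remaining 32 members were under a log2 value of 3 on every array. Their highest value on any array was 2.74, their log2 fold changes ran from -0.26 to 0.10, and 23 of them were within 0.01 of the lowest value on all 6 arrays. Among these 23 were *PRX52*, a gene of lignin formation in stems, *PER36*, which acts in the release of mucilage from the seed coat, and *Prx37*, whose overexpression is known to restrict growth. *PRX25*, another gene of stem lignin, was at 2.41 on the log2 scale in L*er* replicate 1 and at the lowest value on the other 5 arrays. At such signals a difference between genotypes was not detectable, and the values do not say that these genes were unchanged. Averaged over the 47 members that were not called, the arrays lay between 3.55 and 3.59 on the log2 scale in *tink/ibr5-6* and between 3.56 and 3.60 in L*er*. These 47 were picked for having no call and hold the 32 members near the lowest signal. The closeness of the averages was thus largely built in and does not show that these members were unchanged.

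**Figure D4:**
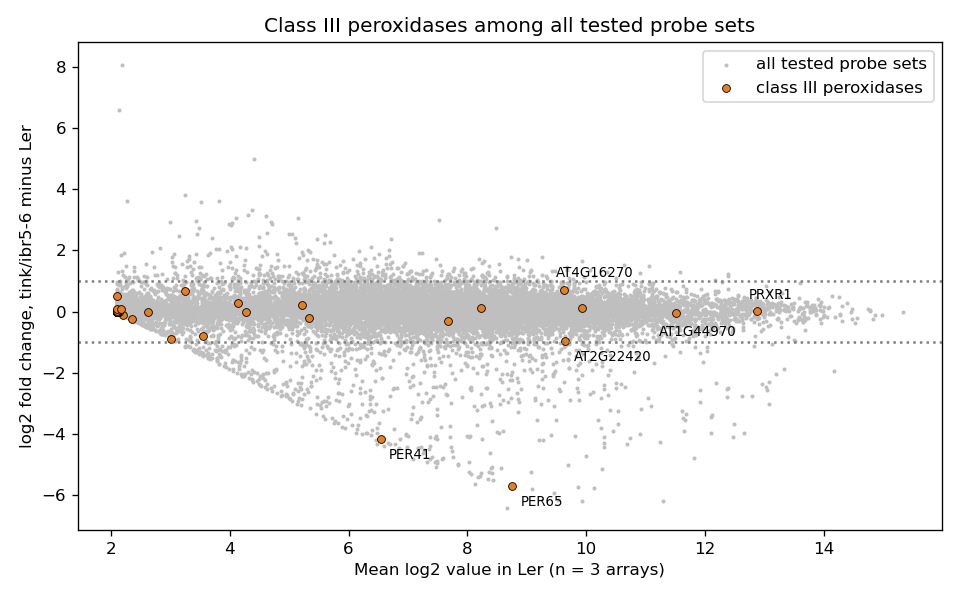
Log2 fold change, *tink/ibr5-6* minus L*er* (vertical axis), against the mean log2 value in L*er* (n = 3 arrays, horizontal axis) for the 22746 tested probe sets (grey) and the 49 class III peroxidases (orange), with dotted lines at -1 and 1. Only *PER65* and *PER41* lie outside these lines among the peroxidases, and 32 members crowd at the lowest signal.

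Genes that work beside the peroxidases were sparsely measured. None of the 4 measured of 10 reference genes passed limma (1 at an unadjusted p under 0.05), and the 1 measured of 24 secondary wall genes was not called either. Of the 13 class III peroxidases outside the list of 60, 6 were measured, and all 6 were under a log2 value of 3 on every array. NADPH oxidases make the superoxide from which hydrogen peroxide arises in the wall, and of the 3 measured of 10 none was called by limma, also at an unadjusted p under 0.05. However, AT4G25090 and AT4G11230 were within 0.01 of the lowest value on every array, where a difference was not detectable. Of 27 superoxide dismutases, catalases and peroxidases of other classes, 3 were measured and none was called (1 at an unadjusted p under 0.05, limma). That one, *TAPX*, an ascorbate peroxidase gene of the chloroplast thylakoid, had 8.47 ± 0.12 in the mutant against 9.11 ± 0.02 in the wild type (SD, n = 3 per genotype, log2 scale), or -0.64 as a log2 fold change (limma adjusted p = 0.011). The single measured laccase gene of 17, *LAC16*, was at the lowest value on all arrays.

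Of 18 genes of monolignol synthesis, which supplies the phenolic substrates of lignin, *CCR2* and *HCT* were measured. *CCR2*, a cinnamoyl-CoA reductase gene, was higher, with 7.16 ± 0.14 in the mutant against 5.91 ± 0.33 in the wild type (SD, n = 3 per genotype, log2 scale), or 1.25 as a log2 fold change (SE 0.20, limma adjusted p = 0.024). Leaving out L*er* replicate 1 kept the call, and leaving out any of the other 5 arrays lost it. *HCT* differed by -0.16 on the log2 scale (limma adjusted p = 0.60). Extensins and the related LRX proteins are wall proteins that peroxidases can link. Of 13 such genes 8 were measured, 2 of them were lower (AT2G15880 and AT1G49490) and 6 were not called (4 of the 8 passed an unadjusted p under 0.05, limma). AT2G15880 was at least 3.88-fold lower, with 2.66 ± 0.09 in *tink/ibr5-6* and 4.95 ± 0.08 in L*er*, and AT1G49490 at least 1.87-fold lower (log2 scale means, SD, n = 3 each, limma adjusted p = 0.0012 for both). The median log2 fold change of the 8 was -1.13, but it does not describe all of them. For 4 of the 8, every mutant array was below every L*er* array (14.4% over all tested probe sets). Besides the 2 called genes these were AT5G25550 and AT3G19020. Their fitted log2 fold changes were -2.75 (limma adjusted p = 0.059) and -2.12 (limma adjusted p = 0.15), and neither was called. AT3G24480 differed by only 0.02 on the log2 scale. AT3G22800 (0.03) and AT4G18670 (0.00) were under a log2 value of 3 on every array. The part of pollen content in the median was not tested.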

How the data were processed

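The 6 ATH1 arrays were normalized by the authors with gcrma in R/Bioconductor (version not given in the sources used here), and 1 log2 value per probe set and array was deposited. No scaling was added. The table has 22810 probe sets with 64 controls, which did not enter the test. Of the other 22746, the platform annotation gives 1 gene for 13513, several for 503 and does not list 8730, and genes were matched to loci through RefSeq gene identifiers (TAIR10.1). No member had several probe sets, and none had a probe set marked for possible cross-matches.

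Genotypes were compared with limma 3.58.1 (R 4.3.3), without a block, over all tested probe sets, and the test was tried on simulated data. The prior had 0.401 degrees of freedom, so that each spread comes almost wholly from the 6 values of that probe set. If the dimmer genotype had no array at a log2 value of 3 or above, the fold is a bound counted from 3. gcrma estimates background from probe sequence, so that differences at low signals can be compressed. The rule for genes named with values took called members, members nearest to a threshold, those averaging at least 9 on the log2 scale, those of known role, and up to 3 called genes of each other list. The other genes named, among them the remaining members above a log2 value of 3 on some array, were chosen after their values were seen. The members, lists and the level of 3 were chosen with earlier results of these data known. Alternatives covered scaling, filters, prior, array weights, a replicate block, thresholds and leaving out each array. Python 3.11.15 with pandas 2.3.3, numpy 2.4.6 and matplotlib 3.10.9 did the rest. Sequences of the members were not used here.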

Additional observations from a re-analysis of the deposited data

How the results depend on the processing

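The count of 2 peroxidases called lower was 0 of 7 members when only probe sets averaging at least 6 on the log2 scale were tested, which leaves out *PER65* and *PER41* themselves, and 1 at an adjusted p under 0.01, where *PER65* remained. It was 3 without the limit on the fold change, and leaving out each array gave 1 to 2. Without *tink/ibr5-6* replicate 1 the 2 called were *PER65* and AT2G22420. The count of 0 called higher was 1 without the limit on the fold change and 0 under the other 16 alternatives. With the replicate number as a replicate block, 0 were called lower, with log2 fold changes of -5.70 for *PER65* (adjusted p = 0.078) and -4.16 for *PER41* (adjusted p = 0.095, limma), and calls over all probe sets went from 966 to 133. Deviations of arrays with the same number correlated with r of -0.25, 0.01 and -0.04. Only replicate 2 of *tink/ibr5-6*, and neither replicate 1 nor replicate 3, correlated best with its own number. With 3 arrays per genotype, these values cannot tell whether arrays with the same number share a batch. The sources used here do not say so either. Single members were followed under the alternatives only for the 17 above a log2 value of 3 on at least 1 array, and not for the other 32. Of their 275 values, 3 turned their sign, all of *PRXR1* and AT2G34060. That of *PRXR1* was -0.059 after quantile normalization and ran from -0.028 (without L*er* replicate 1) to 0.054 when 1 array was left out, and that of AT2G34060 was 0.16 after quantile normalization. Calls over all tested probe sets were 632 among those with a mean of at least 6, 366 at an adjusted p under 0.01, 3697 without the limit on the fold change and 518 without *tink/ibr5-6* replicate 2. The same alternatives were applied to the other gene lists after the data had been seen. The 8 pollen genes called lower became 0 with the replicate block, 2 of 3 with the mean of at least 6 and 3 at an adjusted p under 0.01. Signals near the lowest value limit what could be detected for 32 members.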
